A study of Mus musculus with 18 samples.

Results

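The signals of 10 inflammatory cytokine and chemokine genes (Il1a, Il1b, Tnf, Il6, Il10, Ccl2, Ccl3, Ccl4, Cxcl2 and Cxcl10) are described here, out of 19505 genes with a symbol on the array. The genes were taken by name, each from the probe set with the highest mean for its symbol, and each of the 10 had 1 probe set. RNA came from bone marrow mesenchymal stromal cell preparations of 18 mice, with 1 array per mouse. NeuT mice, in which an activated form of the rat Erbb2 gene (also called HER2 or neu) gives rise to mammary tumours, were sampled at 12 weeks (5 mice, labelled as an early stage of tumour development) and at 24 weeks (4 mice, labelled as a late stage). Control BALB/c mice were sampled at the same ages (5 and 4 mice). Since NeuT mice are labelled tumour-bearing at either age, transgene and tumour cannot be told apart, nor can age and any processing batch of the ages. The cells came from femurs and tibias after magnetic beads had removed cells with CD45, Ter119, CD11b, CD11c, CD3, Gr1 or B220, and flow cytometry described them as CD45-, CD29+ and CD44+.

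Interleukin-1, tumour necrosis factor (TNF) and interleukin-6 are secreted early in inflammation and act on receptors of neighbouring cells. Chemokines of the CC and CXC families draw leukocytes along a gradient: CCL2 acts on monocytes through CCR2, CCL3 and the related CCL4 on monocytes and lymphocytes, CXCL2 on neutrophils through CXCR2, and CXCL10 on T and NK cells through CXCR3. In marrow these transcripts are made by macrophages, monocytes and neutrophils as well as by stromal cells, and their transcription is commonly driven by NF-kB, AP-1 and interferon-regulated factors.

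For 5 of the genes the 250 bases before the annotated transcription start are shown: Il1b, Ccl3, Cxcl2 and Cxcl10 because they were higher in NeuT mice at 12 weeks, and Il6 because it holds a NF-kB type match yet did not pass the test. They come from RefSeq's mouse reference (build GRCm38.p6, a C57BL/6J sequence, while these mice are of BALB/c background) and are written 5′ to 3′ on the gene's strand. The Il1b window reaches into the annotated Il1b locus, and the Ccl3 window lies within the annotated Ccl4 locus. The window of Il1a, searched but not shown, lies mostly within the annotated Il1a locus, and so do its matches. Capitals mark matches to a kappaB motif, an AP-1 motif, an interferon-response (ISRE) core or a TATA box.
Il1b, chr2:129371140-129371389, minus strand: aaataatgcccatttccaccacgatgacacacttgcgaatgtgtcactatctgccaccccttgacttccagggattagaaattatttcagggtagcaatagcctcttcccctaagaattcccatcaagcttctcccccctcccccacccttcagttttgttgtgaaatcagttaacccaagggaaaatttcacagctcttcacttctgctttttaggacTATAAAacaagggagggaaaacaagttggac
Ccl3, chr11:83649379-83649628, minus strand: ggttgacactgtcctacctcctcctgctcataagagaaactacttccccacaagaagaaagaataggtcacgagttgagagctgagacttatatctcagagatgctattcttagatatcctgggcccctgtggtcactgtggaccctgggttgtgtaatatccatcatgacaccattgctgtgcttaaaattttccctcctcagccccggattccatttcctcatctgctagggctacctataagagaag
Cxcl2, chr5:90903649-90903898, plus strand: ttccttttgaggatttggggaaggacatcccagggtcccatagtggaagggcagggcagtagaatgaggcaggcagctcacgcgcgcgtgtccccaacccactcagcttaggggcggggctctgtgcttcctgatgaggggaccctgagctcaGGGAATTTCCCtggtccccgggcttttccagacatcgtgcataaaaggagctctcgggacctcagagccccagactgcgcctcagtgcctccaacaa
Cxcl10, chr5:92348890-92349139, minus strand: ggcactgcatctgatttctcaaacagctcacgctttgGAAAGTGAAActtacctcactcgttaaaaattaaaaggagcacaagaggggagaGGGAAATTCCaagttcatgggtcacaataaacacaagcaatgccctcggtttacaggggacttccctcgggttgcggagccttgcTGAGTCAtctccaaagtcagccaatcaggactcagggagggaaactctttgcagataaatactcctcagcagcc
Il6, chr5:30012864-30013113, plus strand: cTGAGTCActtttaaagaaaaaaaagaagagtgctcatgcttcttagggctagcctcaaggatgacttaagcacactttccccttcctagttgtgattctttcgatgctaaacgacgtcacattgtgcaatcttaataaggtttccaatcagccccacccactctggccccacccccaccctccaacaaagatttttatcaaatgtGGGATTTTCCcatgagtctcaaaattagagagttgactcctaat

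The kappaB motif searched was GGGA, any 2 bases and TTCC on both strands, which 1.21% of 32851 RefSeq promoter windows held. It was found in Cxcl2 (from base -97, with an overlapping match on the other strand), in Cxcl10 (from base -159) and in Il6 (from base -44). AP-1 (TGANTCA, both strands, 6.75% of windows) was found in Cxcl10 (from base -74), Il6 (near the far end of its window) and Il1a (from base -12). The ISRE core (GAAA, any 2 bases and GAAA, both strands, 2.98% of windows) was found in Cxcl10 (from base -213). TATAAA on the gene's strand, in 7.59% of windows, was found in Il1b, Il1a and Tnf. Of the 10 genes 7 had a promoter entry (not Il10, Ccl2 and Ccl4), and the window of Ccl3 held none of these letters. A match describes the sequence and does not show binding.

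Median log2 signals of the arrays ran from 8.43 to 8.56, and their correlations across genes from 0.978 to 0.997. The arrays that correlated least with the rest were replicates 4 of the younger and 1 of the older NeuT mice and replicate 3 of the older BALB/c mice. The table has no detection calls, and its negative controls had a median of 7.35 and a 95th percentile of 10.46 on the log2 scale. The genes lay above the control median in all 18 arrays, except Il1a in 17. Only Ccl3 (in 18 arrays) and Ccl4 (in 1) exceeded the 95th percentile. Of 16 measured stromal marker genes Lepr, Col3a1, Foxc1 and Lum, which mark reticular and fibroblastic stroma, lay below the control median in all 4 groups. Cxcl12, Col1a1 and Dcn, also stromal markers, had group means of 9.18 to 9.36, 9.84 to 10.04 and 9.75 to 10.16. None of 15 neutrophil or 10 B-cell markers lay below the control median in all groups, and Elane and Mpo, of neutrophil precursors, had group means of 13.90 to 14.12 and 13.78 to 13.97. In such a bulk sample more cells of a type and more RNA per cell cannot be told apart.

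At 12 weeks 6 of the 10 genes were higher in NeuT than in BALB/c mice (Ccl4, Il1b, Cxcl2, Ccl3, Ccl2 and Cxcl10) and none was lower, at an adjusted p under 0.05 in limma's test. The adjustment (Benjamini-Hochberg) ran over all 19505 genes. Over all genes 3.15% were called higher and 0.687% lower. The median log2 difference of the 10 genes was 0.39, against -0.025 over all genes. The largest changes were in the macrophage inflammatory protein Ccl4, 1.91-fold higher, and in Il1b, 1.67-fold higher. At 24 weeks Tnf alone passed (1.48-fold higher in NeuT mice), where 1.18% of all genes were called higher and 0.220% lower. The median of the 10 genes was 0.16 there, against -0.00014 over all genes.

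**Figure D1:**
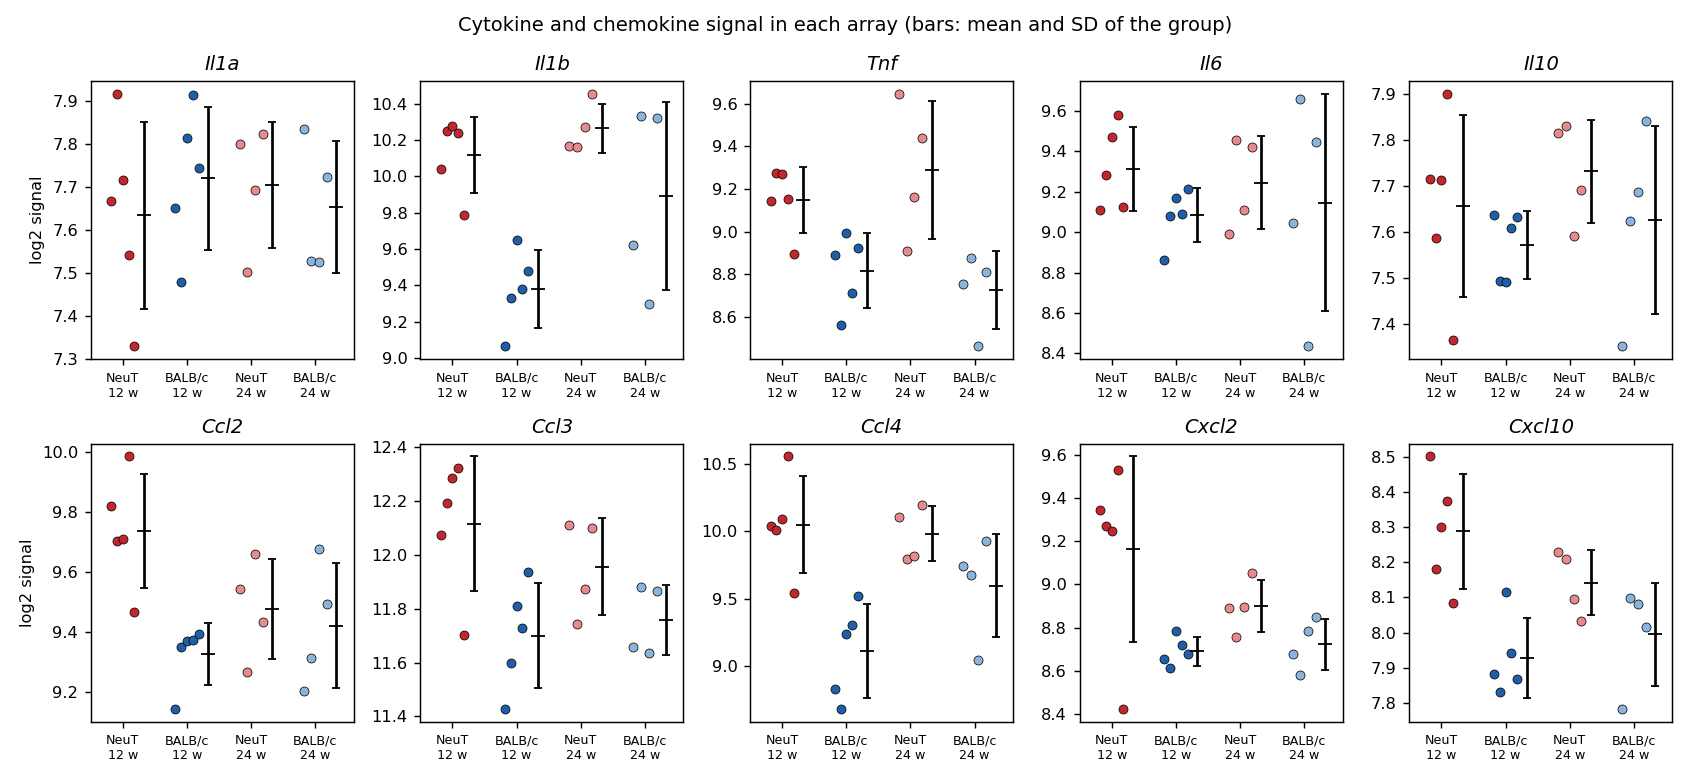
Log2 signal of each of the 10 genes in each array (points), by mouse model and age, with the group mean and SD as a bar; the vertical scale differs between panels. For Il1b, Ccl2 and Ccl4 every NeuT point at 12 weeks lies above every BALB/c point of that age, and for Tnf the same holds at 24 weeks.

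Among the interleukins Il1b encodes interleukin-1 beta, a cytokine made as a precursor and cut by caspase-1. It lies at chr2:129364569-129371164 (GRCm38.p6). Il1b had log2 signals of 10.04, 10.25, 10.28, 10.24 and 9.79 in NeuT mice at 12 weeks, against 9.06, 9.33, 9.65, 9.38 and 9.48 in BALB/c mice. Every NeuT array stood above every BALB/c array. The log2 difference was 0.74 ± 0.16 (SE, n = 5 each), with an adjusted p of 0.0113 in limma's test. At 24 weeks Il1b read 10.17, 10.16, 10.27 and 10.46 in NeuT mice, against 9.62, 10.33, 9.30 and 10.32 in BALB/c mice. The NeuT arrays were close together, while the BALB/c arrays fell into a low and a high pair, of which the high one lay among the NeuT values. The difference of 0.37 ± 0.17 (n = 4 each) did not pass (limma adjusted p = 0.358). With 1 array left out that difference ran from 0.17 (without BALB/c replicate 3) to 0.52 (without BALB/c replicate 2). Array weights gave 0.048.

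Il1a, which encodes the related interleukin-1 alpha (chr2:129299609-129310186), did not differ past the threshold at either age. Its NeuT signals at 12 weeks were 7.33 to 7.92, against 7.48 to 7.91 in BALB/c mice. At 24 weeks they were 7.50 to 7.82 in NeuT and 7.52 to 7.83 in BALB/c mice. The log2 differences were -0.086 ± 0.10 and 0.051 ± 0.11 (SE), with 95% intervals of -0.30 to 0.13 and -0.19 to 0.29. The group means of Il1a, 7.63 to 7.72, lay close to the control median of 7.35, so its values compare signals.

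Tnf, the founding ligand of the TNF family (chr17:35199367-35202007), read 9.65, 8.91, 9.16 and 9.44 in NeuT mice at 24 weeks, against 8.75, 8.87, 8.46 and 8.81 in BALB/c mice. The groups did not overlap, although the lowest NeuT array lay close to the highest BALB/c array. The difference was 0.56 ± 0.13 (limma adjusted p = 0.0372), and the exact two-sided permutation p over the 8 arrays was 0.0286, the smallest this design gives. At 12 weeks Tnf read 9.14, 9.28, 9.27, 9.15 and 8.89 in NeuT mice, against 8.89, 8.56, 8.99, 8.71 and 8.92 in BALB/c mice. Of the NeuT arrays 4 lay above all BALB/c arrays and replicate 5 did not. That difference of 0.33 ± 0.12 did not pass (limma adjusted p = 0.111), but it did with array weights (0.35, limma adjusted p = 0.0349). The change of the Tnf difference with age, 0.23 ± 0.18, did not pass either (limma adjusted p = 0.884). The call at 24 weeks held in 4 of 8 fits that left out 1 array each. It ended without NeuT replicate 1 (0.44, adjusted p = 0.219), NeuT replicate 4 (0.51, 0.167), BALB/c replicate 1 (0.57, 0.0875) or BALB/c replicate 3 (0.47, 0.126). It also ended under a further quantile normalization, under cyclic loess and in the limma fit to the 2 groups of that age alone, where 1 gene in all passed. Without the 3 arrays that correlate least the difference was 0.36 (limma adjusted p = 0.374).

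Il6, a cytokine of the acute-phase response (chr5:30013114-30019975), read 9.11 to 9.58 in NeuT and 8.86 to 9.21 in BALB/c mice at 12 weeks. At 24 weeks the NeuT arrays read 8.99 to 9.46, against 9.05, 9.66, 8.43 and 9.45 in BALB/c mice, whose arrays spread over 1.23. The differences of 0.23 ± 0.16 and 0.097 ± 0.18 did not pass (limma adjusted p = 0.423 and 0.857). Il10, which encodes an anti-inflammatory cytokine (chr1:131019845-131024970), read 7.36 to 7.90 in NeuT and 7.49 to 7.64 in BALB/c mice at 12 weeks. At 24 weeks it read 7.59 to 7.83 in NeuT and 7.35 to 7.84 in BALB/c mice. Its differences of 0.084 ± 0.094 and 0.11 ± 0.11 did not pass (limma adjusted p = 0.640 and 0.706). The group means of Il10, 7.57 to 7.73, lay close to the control median of 7.35, so its values compare signals.

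Among the CC chemokines Ccl4 (macrophage inflammatory protein 1 beta, chr11:83648624-83664683) had the largest difference. It read 10.04, 10.01, 10.09, 10.56 and 9.54 in NeuT mice at 12 weeks, against 8.83, 8.68, 9.24, 9.30 and 9.52 in BALB/c mice. The groups did not overlap, with NeuT replicate 5 just above BALB/c replicate 5. The difference was 0.93 ± 0.17 (limma adjusted p = 0.00492). At 24 weeks Ccl4 read 10.11, 9.80, 9.82 and 10.20 in NeuT mice, against 9.74, 9.68, 9.04 and 9.93 in BALB/c mice. The highest BALB/c array lay above both of the lower NeuT arrays, and the difference of 0.38 ± 0.20 did not pass (limma adjusted p = 0.406). With 1 array left out that difference ran from 0.20 (without BALB/c replicate 3) to 0.49 (without BALB/c replicate 4). Array weights gave 0.25.

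Ccl3 (macrophage inflammatory protein 1 alpha, chr11:83647843-83649378) is the neighbour of Ccl4, and in the RefSeq annotation their loci overlap, so signals from shared sequence cannot be told apart here. Ccl3 read 12.07, 12.19, 12.28, 12.32 and 11.70 in NeuT mice at 12 weeks, against 11.43, 11.60, 11.81, 11.73 and 11.94 in BALB/c mice. The first 4 NeuT arrays stood above all BALB/c arrays and replicate 5 lay among them. The difference was 0.41 ± 0.11 (limma adjusted p = 0.0391). At 24 weeks it was 0.20 ± 0.13 (limma adjusted p = 0.522), with 11.74 to 12.11 in NeuT and 11.63 to 11.88 in BALB/c mice.

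Ccl2 (monocyte chemoattractant protein 1, chr11:82035577-82037452) read 9.82, 9.70, 9.71, 9.99 and 9.47 in NeuT mice at 12 weeks, against 9.14, 9.35, 9.37, 9.37 and 9.39 in BALB/c mice. The groups did not overlap, and the difference was 0.41 ± 0.099 (limma adjusted p = 0.0230). At 24 weeks it was 0.054 ± 0.11 (limma adjusted p = 0.876), with 9.27 to 9.66 in NeuT and 9.20 to 9.68 in BALB/c mice. The ranges of the older mice almost coincided.

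Of the CXC chemokines Cxcl2 (macrophage inflammatory protein 2, chr5:90903899-90905938) read 9.35, 9.27, 9.25, 9.53 and 8.42 in NeuT mice at 12 weeks, against 8.65, 8.61, 8.78, 8.72 and 8.68 in BALB/c mice. Of the NeuT arrays 4 lay well above the BALB/c arrays, while replicate 5 was the lowest of the 10. The difference was 0.47 ± 0.13 (limma adjusted p = 0.0451), and without NeuT replicate 5 it was 0.66 ± 0.080 (limma adjusted p = 9.03e-05). At 24 weeks Cxcl2 read 8.76 to 9.05 in NeuT and 8.58 to 8.85 in BALB/c mice, a difference of 0.18 ± 0.15 (limma adjusted p = 0.645).

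Cxcl10, an interferon-inducible chemokine (chr5:92346638-92348889), read 8.50, 8.18, 8.30, 8.37 and 8.08 in NeuT mice at 12 weeks, against 7.88, 7.83, 8.12, 7.94 and 7.87 in BALB/c mice. The groups overlapped by NeuT replicate 5, which lay below BALB/c replicate 3. The difference was 0.36 ± 0.085 (limma adjusted p = 0.0201). At 24 weeks it was 0.15 ± 0.095 (limma adjusted p = 0.530), with 8.03 to 8.23 in NeuT and 7.78 to 8.10 in BALB/c mice.

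At 12 weeks Il1b, Ccl2 and Ccl4 had no overlap between NeuT and BALB/c arrays, where 4.63% of all genes were higher without overlap. At 24 weeks this held for Tnf, where 4.95% of all genes did so. The exact two-sided permutation p at 12 weeks was 0.00794 for each of Il1b, Ccl2 and Ccl4, the smallest this design gives. It was 0.0159 for Cxcl10, 0.0238 for Tnf, 0.0317 for Ccl3 and 0.0476 for Cxcl2, all unadjusted. With 1 array left out in turn, the 12-week calls of Il1b and Ccl4 held in 10 of 10 fits and those of Ccl2 and Cxcl10 in 6. The calls of Ccl2 and Cxcl10 ended without NeuT replicate 1 or 4 or BALB/c replicate 1 or 2, with differences of 0.35 to 0.42 for Ccl2 and 0.31 to 0.35 for Cxcl10. The Ccl3 call held in 3 fits (without NeuT replicate 5 or BALB/c replicate 3 or 5) and ended in the other 7, at 0.35 to 0.42. The Cxcl2 call held in 1, without NeuT replicate 5, and ended in the other 9, at 0.38 to 0.50. Both of these calls also ended under a further quantile normalization (limma adjusted p = 0.0507 for Ccl3 and 0.0563 for Cxcl2) and under cyclic loess (0.0557 and 0.0518). They ended as well in the limma fit to the 2 groups of that age alone (adjusted p = 0.0522 for Ccl3 and 0.0759 for Cxcl2) and without the 3 arrays that correlate least (0.0739 and 0.104).

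**Figure D2:**
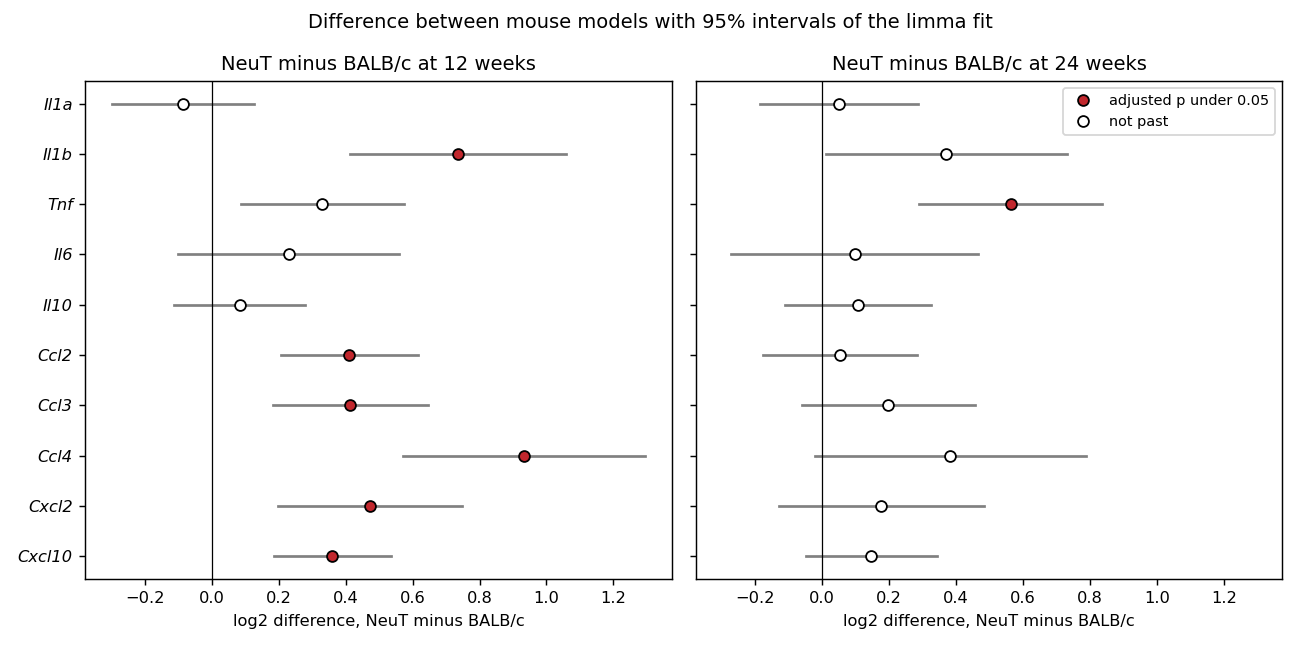
Log2 difference between NeuT and BALB/c mice for the 10 genes (points) with the 95% interval of the limma fit (lines), at 12 weeks on the left and 24 weeks on the right. Filled points passed an adjusted p of 0.05: 6 genes at 12 weeks, from 0.36 (Cxcl10) to 0.93 (Ccl4), and Tnf (0.56) at 24 weeks.

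The same genes were set against age and against the change of the NeuT difference with age. None of the 10 differed between 24 and 12 weeks past the threshold in limma's test, in NeuT mice (0.0359% of all genes called) or in BALB/c mice (0.579% called). At an unadjusted p under 0.05 there was 1 in NeuT mice (12.6% of all genes) and there were 2 in BALB/c mice (15.3%). In BALB/c mice those were Il1b, with a 24 minus 12 week difference of 0.51 ± 0.16 (limma adjusted p = 0.129), and Ccl4, with 0.48 ± 0.19 (limma adjusted p = 0.204). Both passed when BALB/c 24-week replicate 3, the lowest of its group for each, was left out (0.71 for Il1b and 0.67 for Ccl4). In NeuT mice it was Ccl2, with -0.26 ± 0.11 (limma adjusted p = 0.289).

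The difference between the mouse models changed with age past the threshold for none of the 10 genes in limma's test, where 0.0103% of all genes were called. At an unadjusted p under 0.05 there were 2 (6.50% of all genes): Ccl4 with -0.55 ± 0.26 (limma adjusted p = 0.759) and Ccl2 with -0.36 ± 0.15 (limma adjusted p = 0.732). The median over the 10 genes was -0.21, against 0.020 over all genes, with 7 negative and 3 positive. The NeuT differences at 12 and 24 weeks were thus not shown to differ. In the order of the group means both NeuT groups stood highest for 9 genes, all but Il1a. NeuT at 12 weeks was the highest for 6, and BALB/c at 12 weeks the lowest for 8. Within that order Ccl4 averaged 10.05 ± 0.36 and 9.98 ± 0.20 in NeuT mice at 12 and 24 weeks, against 9.12 ± 0.35 and 9.60 ± 0.38 in BALB/c mice (SD, n = 5 and 4). The highest and lowest group means of those 9 genes lay 0.16 (Il10) to 0.93 (Ccl4) apart. The orders were not tested, and their share over all genes was not determined.

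NeuT 12-week replicate 5 was the lowest of its group for 9 of the 10 genes, all but Il6, and replicate 4 the highest for 6. NeuT 24-week replicate 2 was the lowest for 7, and BALB/c 24-week replicate 3 for 6. With group means removed, 43 of the 45 pairs of genes had a positive Pearson r over the 18 arrays, with a median of 0.47 and a range of -0.19 to 0.86. Over the 45 pairs, 8 passed an adjusted permutation p of 0.05 by Pearson's r and 2 by both r and Spearman's rho. These were Ccl3 with Ccl4 (r = 0.82, rho = 0.77, raw permutation p = 0.000190 and 0.00116, adjusted 0.00427 and 0.0425) and Ccl3 with Il1b (r = 0.71, rho = 0.72, raw permutation p = 0.000180 and 0.00189, adjusted 0.00427 and 0.0425). Without the 2 arrays farthest from the median of 1 gene of the pair (Ccl3 in the first pair, Il1b in the second), r was 0.76 and 0.77. Il1b with Il6 had the highest r (0.86, rho 0.76, adjusted permutation p = 0.00720 and 0.0539), and 0.74 without the 2 arrays farthest from the median of Il1b. Both genes of a pair were read from the same RNA on the same array, and the share of positive r over pairs of all genes was not determined.

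Over all genes, those with group-removed signals most like Il1b across the 18 arrays were Cdkn2aip (r = 0.89), Rpl31-ps12 (0.87), Acod1 (0.87), Mettl15 (0.87) and Il6 (0.86). Most like Ccl4 were Polr1e (0.95), Ppa2 (0.94), Washc3 (0.93), Gfus (0.92) and Gm14288 (0.92). Most like Cxcl10 were Chic1 (0.88), Olfr1385 (0.82), Olfr1135 (0.82), Cdca8 (0.81) and Ms4a19 (0.80). These are the highest of 19505 correlations each and describe these arrays.

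**Figure D3:**
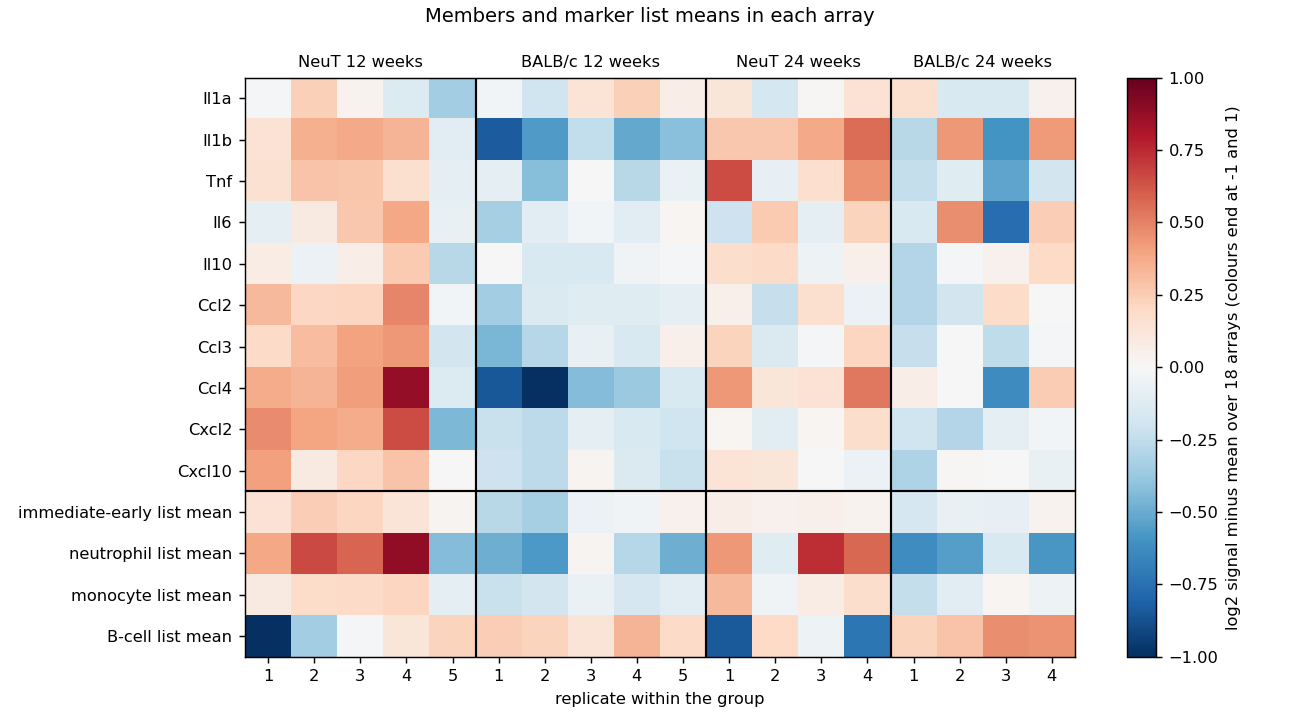
Log2 signal of each of the 10 genes (upper rows) and mean of each of 4 marker gene lists (lower rows) in each of the 18 arrays, as the difference from the mean over all arrays; red is higher and blue lower, and colours end at -1 and 1. NeuT 12-week replicate 5 is the lowest of its group for 9 of the 10 genes and in the neutrophil, monocyte and immediate-early lists.

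Of 15 neutrophil markers 6 were higher in NeuT mice at 12 weeks and 6 at 24 weeks, with none lower and medians of 0.59 and 0.68. Among the markers that passed, Chil3 (1.96) and Mmp8 (1.81) had the largest differences at 12 weeks, and Ltf (1.82) and Mmp9 (1.07) at 24 weeks. The BALB/c means of Chil3 and Mmp9 lay below the control median or close to it, so their values compare signals. The mean of that list was 10.62 to 11.94 in NeuT and 10.48 to 11.08 in BALB/c arrays at 12 weeks, and 10.93 to 11.79 in NeuT and 10.44 to 10.90 in BALB/c arrays at 24 weeks. Of 13 monocyte and macrophage markers 4 were higher and 1 lower at 12 weeks (Lyz2 0.76, F13a1 0.70 higher), and 2 were higher at 24 weeks (Vcam1 0.47, Ly6c2 0.44). At 12 weeks 11 of the 13 had a positive difference. C1qb and C1qc had lower means in NeuT than in BALB/c mice then (7.94 against 8.15 and 7.38 against 7.70). That list mean was 9.15 to 9.45 in NeuT and 9.02 to 9.17 in BALB/c arrays at 12 weeks, and 9.21 to 9.56 in NeuT and 8.999 to 9.26 in BALB/c arrays at 24 weeks.

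Of 20 immediate-early genes, which respond within minutes to many stimuli, 8 were higher at 12 weeks (Fos 0.89, Atf3 0.65) and none at 24 weeks. Their list mean was 10.65 to 10.86 in NeuT and 10.28 to 10.66 in BALB/c arrays at 12 weeks, and 10.66 to 10.69 in NeuT and 10.45 to 10.65 in BALB/c arrays at 24 weeks. Of the mast cell, basophil and eosinophil markers 2 of 11 were higher at 12 weeks (Ms4a2 0.62, Fcer1a 0.41). The BALB/c mean of Ms4a2 at that age, 7.38, lay close to the control median of 7.35, so its value compares signals. No dendritic cell (10), B-cell (10), erythroid (6), megakaryocyte (8) or stromal (16) marker passed at either age. The B-cell medians were -0.55 and -0.77. Of 10 T and NK cell markers Nkg7 was higher at 12 weeks (0.34), and 1 was higher and 3 lower at 24 weeks (Gzma -1.33, Cd2 -1.03). Of 10 endothelial markers Cdh5 was lower at 12 weeks (-0.54).

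With the mean of the neutrophil, the monocyte or the immediate-early list added to the fit, none of the 10 genes passed at either age, and 4, 4 and 3 genes of all 19505 passed at 12 weeks against 749 without it. With these list means, in that order, the 12-week difference of Ccl4 was 0.66, 0.62 and 0.38 and that of Il1b 0.57, 0.53 and 0.32. Cxcl10 gave 0.24, 0.21 and 0.24, and Ccl2 0.14, 0.13 and 0.24. Ccl3 gave 0.14, 0.057 and 0.047, and Cxcl2 0.039, 0.094 and 0.21. The difference was thus smaller for all 6 genes in each of these fits. The list means differ between the groups themselves, and their part in the results was not tested further.

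**Figure D4:**
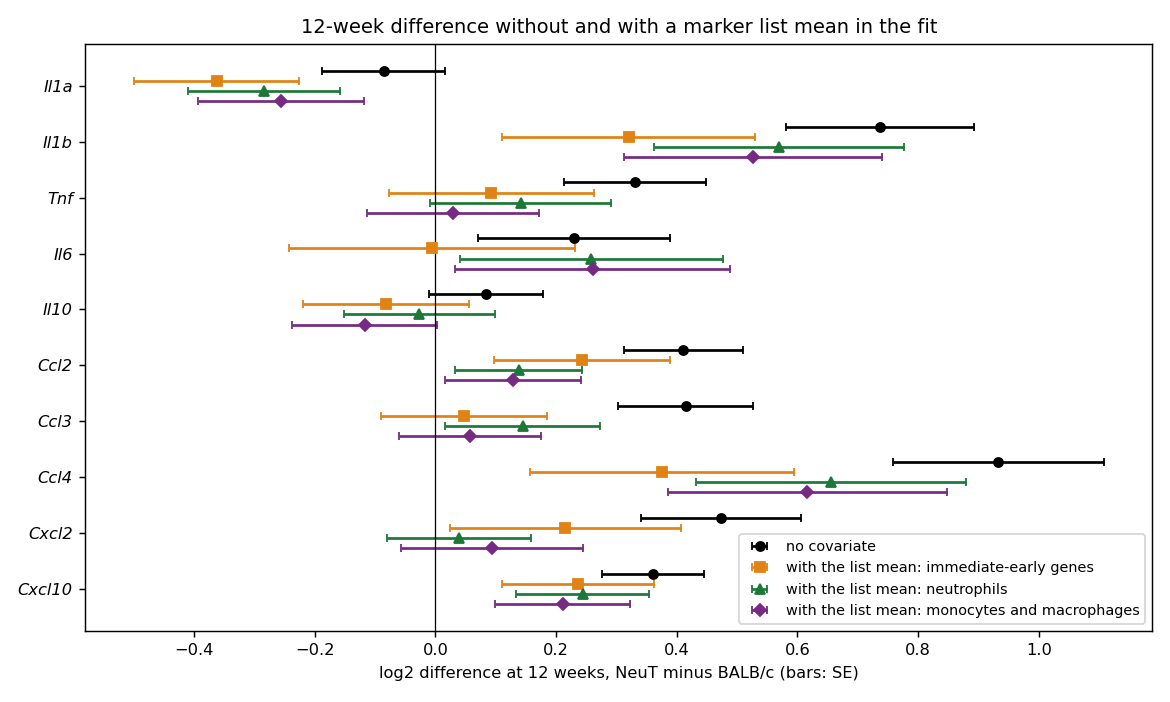
Log2 difference between NeuT and BALB/c mice at 12 weeks for the 10 genes, without a covariate (black) and with the mean of the immediate-early, neutrophil or monocyte list in the fit (colours); bars are SE. Ccl4 has 0.38 to 0.66 with a covariate against 0.93 without one, and Il1b 0.32 to 0.57 against 0.74.

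The receptors of these cytokines had 6 of 15 measured genes higher and none lower in NeuT mice at 12 weeks, with a median of 0.12. Ccr2, the receptor of CCL2, rose most, with a mean of 11.09 in NeuT and 9.84 in BALB/c mice (1.25 ± 0.13, limma adjusted p = 9.02e-06). Cxcr2, the receptor of CXCL2, was higher by 0.47, Ccr1 by 0.46 and Il1r2, a decoy receptor of interleukin-1, by 0.45. Tnfrsf1a, a TNF receptor, was higher by 0.39 and Il6st by 0.33. At 24 weeks 3 were higher: Il1r2 (0.69), Tnfrsf1a (0.58) and Cxcr2 (0.54), and the list median was 0.28. Of the 15 receptor genes 11 had a positive difference at 12 weeks and 13 at 24 weeks. Cxcr2 is also one of the neutrophil markers. The signalling receptor Il1r1 did not pass at 12 weeks (0.011).

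Of 12 genes of cytokine maturation and the inflammasome 4 were higher at 12 weeks, with none lower. They included the inflammasome sensor Nlrp3 (0.98 ± 0.15, limma adjusted p = 0.00132) and Casp1, the protease that cuts the interleukin-1 beta precursor (0.49). The adaptor Pycard (0.41) and the pore-forming Gsdmd (0.33) passed as well. At 24 weeks 1 of 12 was higher, Casp4 (0.55). The medians of this list were 0.20 at 12 weeks and 0.18 at 24 weeks, with 9 and 11 of the 12 differences positive. Of 16 genes of Toll-like receptor signalling Tlr2, a receptor for bacterial lipoproteins, was higher at 12 weeks (0.58), and none passed at 24 weeks, where their median was 0.31.

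Of 14 NF-kB subunits and inhibitors none was higher and 1 was lower at 12 weeks, Relb (-0.53), a subunit of the non-canonical pathway, and none passed at 24 weeks. Of 13 genes of cytokine mRNA decay and feedback 2 were higher at 12 weeks: Atf3 (0.65), a transcription factor that limits cytokine genes, and Zfp36 (0.37), which destabilises Tnf mRNA. Both are also immediate-early genes, and none of the 13 passed at 24 weeks. Of 15 interferon response genes 3 were higher at 12 weeks (Rtp4 0.60, Oas1a 0.53, Oas2 0.51) and 3 at 24 weeks (Oas1a 0.67, Rtp4 0.66, Dhx58 0.49). The BALB/c means of Rtp4 lay below the control median, so its values compare signals.

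None of 15 other CC chemokines passed at either age, and the smallest p was that of Ccl9 at 24 weeks (0.38, limma adjusted p = 0.0768). None of 13 other CXC, XC and CX3C chemokines passed, and the smallest p was that of Ppbp, a platelet chemokine, at 12 weeks (-0.60, limma adjusted p = 0.0734). Of 24 other cytokines 2 were higher at 12 weeks, Il15 (0.78), which sustains NK and memory T cells, and Osm (0.28), a cytokine of the interleukin-6 family, and none at 24 weeks. The medians of these 3 lists lay between -0.041 and 0.047 at both ages.

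**Figure D5:**
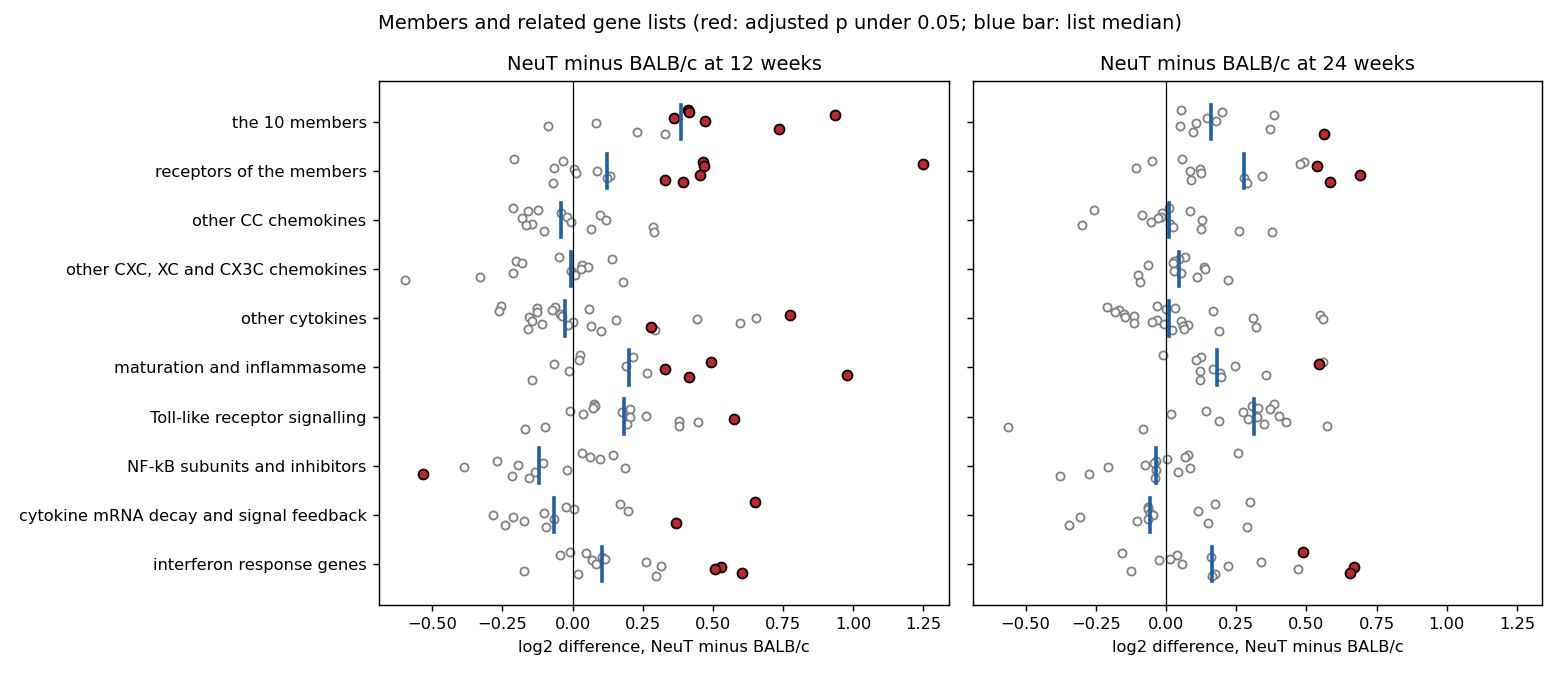
Log2 difference between NeuT and BALB/c mice for the 10 genes (top row) and for each gene of 9 related lists, at 12 weeks on the left and 24 weeks on the right; filled points passed an adjusted p of 0.05 and the blue bar is the list median. Filled points lie to the right of 0 except Relb at 12 weeks, and the other CC and the other CXC chemokines have none.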

How the data were processed

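Biotin-labelled total RNA was measured on 1 array per mouse. The authors deposited log2 signals by probe set. RMA, which corrects background, quantile normalizes and summarises probes, and the Transcriptome Analysis Console are named in the submitters' processing notes, with versions and build not given in the sources used here. Of 29129 probe sets, 19572 had 1 symbol, giving 19505 genes. Controls (5222 negative, 1324 positive) and 3011 other or unnamed probe sets were left out. Coordinates come from RefSeq's GRCm38.p6 table.

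With limma 3.58.1 in R 4.3.3, 1 mean per group was fitted and contrasts tested, two-sided, with moderated variances (14 residual and 8.68 prior degrees of freedom) and Benjamini-Hochberg adjustment over all genes at 0.05. The fit was checked on simulated data with 200 changed genes. Single genes had exact permutation tests, and correlations 100000 permutations within groups. The number of arrays limits the precision.

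The genes, lists and alternatives were chosen with earlier results of these data known. All 10 genes are named. Of each pathway list up to 4 genes past the threshold at each age are named (2 of a marker list), otherwise the one with the smallest p. All 6 receptors past the threshold at 12 weeks and some further list genes are named as well. The 5 genes most like Il1b, Ccl4 and Cxcl10 are also given. Of 282 listed genes 258 were measured. Alternatives were other scalings, a filter on dim genes, probe set means, other moderation, array weights, fits to the groups compared, list means as covariates, and arrays left out. Replicate numbers follow the order of deposit and pair no samples. Motif searches used Python 3.11.15.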

Additional observations from a re-analysis of the deposited data

Results flagged for a closer look

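Over 40 groups of arrays (10 genes in 4 groups) an array was marked where its gap to the nearest other array was too large a part of the group's range by Dixon's 95% criterion, and 2 were marked, while chance marks about 1 in 20. Cxcl2 in NeuT 12-week replicate 5 read 8.42, with the next array at 9.25 and a gap of 0.745 of the range. Ccl2 in BALB/c 12-week replicate 1 read 9.14, with the next array at 9.35 and a gap of 0.823 of the range.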

How the results depend on the processing

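No paired analysis was possible because the labels number no replicates. At 12 weeks the 6 higher genes became 4 under a further quantile normalization, under cyclic loess, in the fit to the 2 groups or without the 3 arrays that correlate least (Ccl3 and Cxcl2 ended in each), 7 with array weights (Tnf gained), 0 with the neutrophil, monocyte or immediate-early list mean as a covariate, and 2 to 6 with 1 array left out. The 749 calls over all genes became 2088 with array weights, 4, 4 and 3 with these list means in that order, and 230 to 1363 with 1 array left out (1363 without NeuT replicate 5). At 24 weeks the 1 higher gene, Tnf, became 0 under quantile normalization, cyclic loess, the fit to the 2 groups, each list mean and the fit without the 3 arrays that correlate least, and 0 to 1 with 1 array left out. The 274 calls over all genes became 122, 101, 1, 2 (neutrophil), 2 (monocyte), 8 (immediate-early) and 15 in that order, 577 with array weights, and 8 to 641 with 1 array left out. Of the calls over all genes 82.1% were higher at 12 weeks and 84.3% at 24 weeks, against 69.1% and 68.0% under quantile normalization and 68.6% and 72.3% under cyclic loess. For 24 against 12 weeks in BALB/c mice 3 of the 10 genes were higher with array weights, 2 without the 3 arrays, and 0 to 2 with 1 array left out, against 0. In NeuT mice 0 to 1 was lower with 1 array left out (Cxcl2, without 12-week replicate 5), against 0.

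Differences that changed sign were all below the threshold in both fits. With the neutrophil list mean the NeuT minus BALB/c difference of Il10 was -0.027 at 12 weeks, and at 24 weeks it was -0.17 for Il1a, -0.020 for Il10, -0.26 for Ccl2, -0.11 for Ccl3 and -0.32 for Cxcl2. With the monocyte list mean it was -0.12 for Il10 at 12 weeks, and at 24 weeks -0.096 for Il1a, -0.067 for Il10, -0.19 for Ccl2, -0.11 for Ccl3 and -0.15 for Cxcl2. With the immediate-early list mean it was -0.0052 for Il6 and -0.082 for Il10 at 12 weeks, and -0.069 for Il1a, -0.0039 for Il6 and -0.018 for Ccl2 at 24 weeks. Array weights gave -0.26 for Il6 at 24 weeks, and leaving out the 3 arrays gave -0.024 for Il1a and -0.055 for Il6. For 24 minus 12 weeks in NeuT mice, array weights gave -0.014 for Il1a, the immediate-early mean 0.015 for Il6 and 0.13 for Ccl4, and the fit without the 3 arrays 0.082 for Il6 and 0.017 for Ccl4. In BALB/c mice Cxcl2 was -0.026 with array weights, -0.046 with the monocyte and -0.021 with the immediate-early mean, and Ccl3 -0.016 and -0.018 with these 2 means. The change of the Il6 difference with age was 0.0013 with the immediate-early mean. With 1 array left out, the 24-week NeuT minus BALB/c difference ran from -0.14 to 0.27 for Il6 and from -0.019 to 0.14 for Ccl2. For 24 minus 12 weeks in NeuT mice it ran from -0.0062 to 0.14 for Il1a, -0.14 to 0.015 for Il6 and -0.19 to 0.060 for Ccl4. In BALB/c mice it ran from -0.11 to 0.30 for Il6, -0.019 to 0.15 for Il10, -0.010 to 0.12 for Ccl3 and -0.0089 to 0.080 for Cxcl2. The change of the difference with age ran from -0.37 to 0.039 for Il6 and -0.070 to 0.094 for Il10. No difference changed sign under the 3 other scalings, and the cause of these changes was not tested.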
